A study of Caenorhabditis elegans with 11 samples.

Results

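The nuclear genes of the mitochondrial respiratory chain and the ATP synthase were followed in whole Caenorhabditis elegans that had been given 1 of 3 betalains, a class of plant pigment. Genes were taken by name: a fixed list of subunit and assembly genes, together with any gene whose symbol in the deposited annotation begins with nuo, nduf, ucr, cox, cco or atp and a number. This gave 38 genes of the 26763 genes named on the array, each measured by 1 transcript cluster, the array's unit for a gene. Of the 42 names on the list, 34 were found under the symbols that the files use, and 4 genes (nduf-2.2, ucr-11, cco-1 and cco-2) came in through the name pattern. All 38 passed the filter on low levels. They comprise 12 genes of complex I, 4 of complex II, 8 of complex III and cytochrome c, 2 subunits and 4 assembly factors of complex IV, and 8 of the ATP synthase.

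All animals were wild-type N2, the standard laboratory strain, kept at 20 °C and described as young adults of 3 days. Synchronised L1 larvae were moved 16 to 18 h after hatching into liquid S medium for 48 h, times given here for the treated arrays only. The stage is the described one, and markers of yolk, oocytes and moulting differ between arrays, as given below. Untreated controls were compared with animals given 25 uM indicaxanthin (the proline-betaxanthin), 25 uM phenylalanine-betaxanthin or 25 uM of the betacyanin of indoline carboxylic acid, here called indoline-betacyanin. RNA from whole animals was hybridised to Affymetrix arrays, with 2 control arrays and 3 arrays for each betalain, numbered by independent trial. The labels do not say what the animals of a trial shared, so p-values measure the spread between these arrays, and whole animals of a single strain were pooled in every sample. Levels are the authors' log2 values, on which 1 unit is a 2-fold change, and they are compared between arrays for 1 gene at a time, never between genes.

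The respiratory chain sits in the inner mitochondrial membrane. Complexes I and II pass electrons from NADH and succinate to ubiquinone, complex III passes them to cytochrome c, complex IV passes them to oxygen, and the proton gradient built by complexes I, III and IV drives the ATP synthase. In this nematode the chain is known for its part in ageing: gas-1 and mev-1 mutants are short-lived and sensitive to oxygen, isp-1 mutants are long-lived, and partial loss of cco-1, cyc-1, nuo-2 or atp-3 by RNA interference lengthens life. Several subunits are encoded by more than 1 gene. For subunit b of the ATP synthase, asb-1 is known as the germ-line form and asb-2 as the form of the rest of the body. The germ line makes up much of an adult and keeps most of its X chromosome silent through much of its development.

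Array 3 of indicaxanthin stood apart from its group before any comparison was made. The mean level of 6 yolk genes was 10.09 on that array and between 10.01 and 10.07 on the 3 phenylalanine-betaxanthin arrays, against 1.56 to 3.17 on the other 7 arrays. The mean of 17 germ-line markers was 6.43 on indicaxanthin array 3 and 6.22 to 6.39 with phenylalanine-betaxanthin, against 2.15 to 2.40 elsewhere. Means of 16 oocyte and eggshell genes (8.25 to 8.43 on these 4 arrays, 2.13 to 2.73 on the others) and of 19 sperm genes (3.61 to 3.95, 1.81 to 2.15) separated the same arrays. Means of 16 neuronal (4.75 to 4.89, 6.08 to 6.98), 12 body wall muscle (7.68 to 7.74, 8.16 to 8.47) and 17 moulting-cycle genes (3.83 to 4.43, 5.66 to 6.06) were lower on these 4. The indoline-betacyanin arrays had the lowest means of 6 pharyngeal muscle genes (2.60 to 2.71, against 3.66 to 4.37 on the other arrays) and of 11 intestinal genes (6.73 to 6.78, against 7.07 to 7.58). The part of these markers in the results below was not tested. Phenylalanine-betaxanthin arrays all had the high yolk and germ-line levels, and the control and indoline-betacyanin arrays all had the low ones. In these comparisons the betalain and this state cannot be told apart. Raised, lowered, rose and fell below describe differences between groups of arrays, whose cause was not tested. In RNA from whole animals fewer cells of a type and less RNA per cell cannot be told apart. Since limma pools the spread of all groups, the main counts are also given without indicaxanthin array 3.

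**Figure D1:**
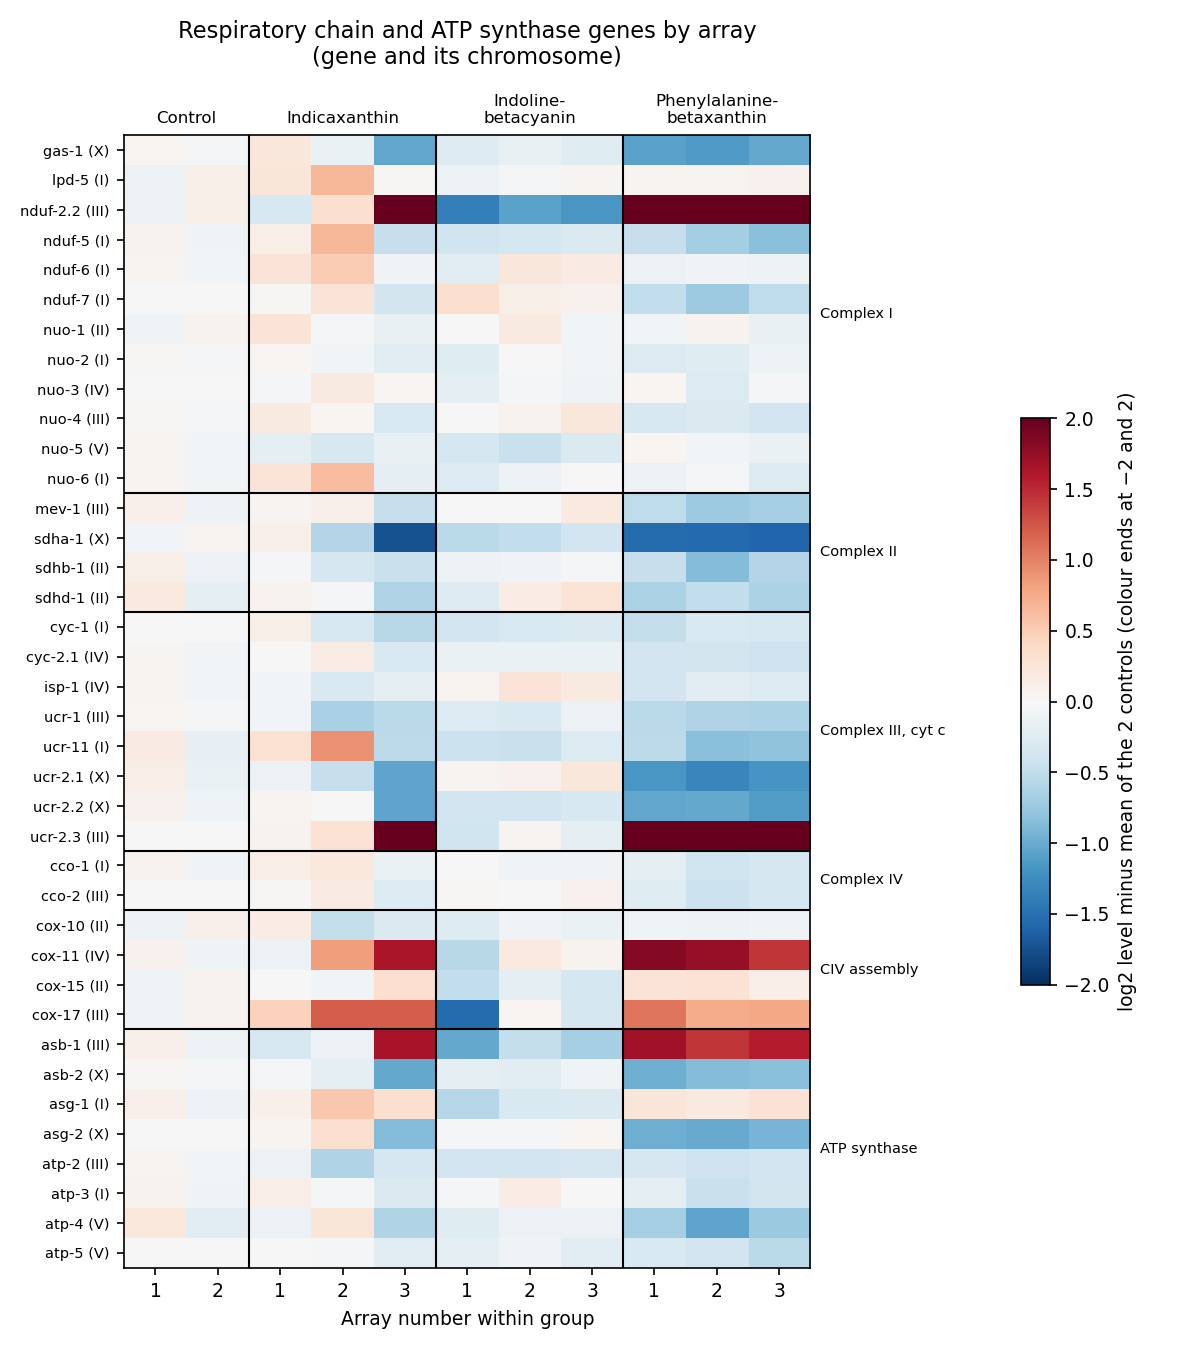
Log2 level of each of the 38 genes on each of the 11 arrays minus the mean of the 2 controls, by complex, with the chromosome of the gene in brackets; red is higher and blue is lower, and the colour ends at −2 and 2. The 3 phenylalanine-betaxanthin arrays and indicaxanthin array 3 share red cells for nduf-2.2, ucr-2.3, cox-11 and asb-1 and blue cells for gas-1, sdha-1, ucr-2.1, ucr-2.2, asb-2 and asg-2.

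The first question was whether respiratory chain transcripts differed between the animals given each betalain and untreated animals. With phenylalanine-betaxanthin, 4 of the 38 genes were higher and 12 lower than in controls (limma over all 11 arrays, Benjamini-Hochberg adjusted p under 0.05 over 20291 clusters, here the meaning of called). That is 42.1% of the genes, beside 44.6% of all clusters tested, so the share was near the background. The direction was less even than the background, in which 22.3% of clusters were higher and 22.3% lower. The median log2 difference of the 38 genes was -0.34, and that of all clusters -0.05. Groups did not overlap for 7 genes higher and 25 lower, beside 34.9% and 40.5% of all clusters. Without indicaxanthin array 3 the calls were 4 higher and 18 lower, beside 61% of clusters, 28.5% higher and 32.5% lower.

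No gene of the 38 was called with indoline-betacyanin (17.3% of clusters called) or with indicaxanthin (6.2% of clusters called). At an unadjusted p under 0.05, limma counted 3 genes with indoline-betacyanin (nuo-5, atp-2 and asg-1, all lower) and 1 with indicaxanthin (ucr-1, lower). Without indicaxanthin array 3, indoline-betacyanin lowered 4 genes (nuo-5, nduf-2.2, asb-1 and ucr-2.2; 35.4% of clusters called, 18.2% lower) and indicaxanthin none (10.5% of clusters called, again with limma). The median log2 difference over the 38 genes was -0.14 with indoline-betacyanin, beside 0.02 over all clusters. With indicaxanthin it was -0.06, beside 0.05 over all clusters, and it became 0.05 without array 3. The difference with indicaxanthin changed sign without that array in 13 of the 38 genes, none of them called, and for asb-1 it went from 0.40 to -0.23. The 3 comparisons share the 2 control arrays.

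The calls against control depended on single arrays. With phenylalanine-betaxanthin the 16 calls became 0 without control array 1, 1 without control array 2 and 2, 1 and 5 without phenylalanine-betaxanthin arrays 1, 2 and 3. Once indicaxanthin array 3 was also left out, 13 of the 16 genes remained called without control array 1 (atp-5, sdhb-1 and ucr-1 were lost), and all 16 remained among 20 called genes without control array 2. Over all clusters the calls with phenylalanine-betaxanthin fell as well. Their 4517 higher and 4524 lower became 1000 and 1625 without its array 1, 959 and 1610 without array 2, and 2564 and 2350 without array 3. They also fell without either control array. Centring each array on its median moved the median of all clusters with phenylalanine-betaxanthin from -0.05 to 0.10. It moved the calls over all clusters from 4517 higher and 4524 lower to 5534 and 3385. Of the 38 genes, 4 were then higher and 7 lower, with atp-5, mev-1, nduf-7, sdhb-1 and ucr-1 lost, and their median was -0.19. The same step moved the calls over all clusters from 1617 higher and 1902 lower to 2387 and 1568 with indoline-betacyanin, and from 64 and 1194 to 181 and 979 with indicaxanthin.

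In complex I, the entry point for electrons from NADH, phenylalanine-betaxanthin raised 1 of 12 genes and lowered 2, a share of 25% called beside the 44.6% of all clusters. With indicaxanthin array 3 left out, nduf-5 (limma adjusted p = 0.0065) and nuo-4 (limma adjusted p = 0.0463) were also called lower. The gene that rose, nduf-2.2, and 1 that fell, gas-1, encode forms of the same subunit. nduf-2.2 was at 3.19 and 3.42 in the controls, 6.42, 6.54 and 6.28 with phenylalanine-betaxanthin, 1.93, 2.24 and 2.14 with indoline-betacyanin, and 2.99, 3.63 and 6.21 with indicaxanthin. gas-1 was at 7.44 and 7.35 in the controls, 6.32, 6.26 and 6.37 with phenylalanine-betaxanthin, 7.13, 7.24 and 7.16 with indoline-betacyanin, and 7.62, 7.26 and 6.35 with indicaxanthin. All phenylalanine-betaxanthin arrays thus lay above the controls for nduf-2.2 and below them for gas-1, and indicaxanthin array 3 lay with them while arrays 1 and 2 lay near the controls. The log2 differences with phenylalanine-betaxanthin were 3.11 (SE 0.75, limma adjusted p = 0.0182) for nduf-2.2 and -1.07 (SE 0.30, limma adjusted p = 0.0241) for gas-1. nduf-7 (NDUFS7 in mammals, the subunit of the iron-sulphur cluster next to ubiquinone) was the other gene that fell, from 7.13 and 7.13 in controls to 6.63, 6.40 and 6.62, a difference of -0.58 (SE 0.19, limma adjusted p = 0.0346).

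The other 9 complex I genes were not called against control in any of the 3 comparisons fitted over all arrays. nuo-1, the flavoprotein that binds NADH, ranged from 8.85 to 9.26 over the 11 arrays, and its difference with phenylalanine-betaxanthin was -0.04 (95% interval -0.40 to 0.32). lpd-5 (NDUFS4 in mammals) differed by 0.07 (95% interval -0.35 to 0.49). nuo-5, the largest iron-sulphur subunit (NDUFS1 in mammals), was at 6.15 and 6.04 in controls and 5.74, 5.65 and 5.80 with indoline-betacyanin, groups that did not overlap. Its difference of -0.37 (SE 0.12) had a limma adjusted p of 0.075 over all arrays and 0.0422 without indicaxanthin array 3. nduf-2.2 was also below its controls on all 3 indoline-betacyanin arrays, by -1.2. Its limma adjusted p was 0.366 (SE 0.75) over all arrays and 0.000517 (SE 0.19) without indicaxanthin array 3. On these 3 arrays nduf-2.2 was near the median level of all named clusters (1.97 to 1.99), so the size of this difference is uncertain. The differences of nuo-2, nuo-3, nuo-4, nuo-6, nduf-5 and nduf-6 with phenylalanine-betaxanthin lay between -0.66 (nduf-5) and -0.09 (nuo-3 and nduf-6).

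In complex II, the succinate dehydrogenase that also works in the citric acid cycle, 3 of 4 genes fell with phenylalanine-betaxanthin. Of all clusters, 22.3% were called lower. The other gene of complex II was lower by a similar amount. The flavoprotein gene sdha-1 was at 8.07 and 8.19 in controls, 6.59, 6.57 and 6.54 with phenylalanine-betaxanthin, 7.59, 7.63 and 7.74 with indoline-betacyanin, and 8.23, 7.55 and 6.39 with indicaxanthin. Phenylalanine-betaxanthin arrays and indicaxanthin array 3 were the 4 lowest, and the indoline-betacyanin arrays lay between them and the controls. The difference with phenylalanine-betaxanthin was -1.56 (SE 0.42, limma adjusted p = 0.0214). The membrane anchor gene mev-1 was at 9.09 and 8.88 in controls and 8.47, 8.26 and 8.32 with phenylalanine-betaxanthin, a difference of -0.64 (SE 0.19, limma adjusted p = 0.0269). The iron-sulphur gene sdhb-1 was at 9.38 and 9.15 in controls and 8.81, 8.39 and 8.68 with phenylalanine-betaxanthin, a difference of -0.64 (SE 0.17, limma adjusted p = 0.0224). The second anchor gene, sdhd-1, differed by -0.59 (SE 0.24), with a limma adjusted p of 0.0709 over all arrays and 0.0142 without indicaxanthin array 3. None of the 4 was called with indoline-betacyanin or indicaxanthin, where the differences lay between -0.74 (sdha-1 with indicaxanthin) and 0.06.

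sdha-2, a second flavoprotein gene that the name list did not hold, went the other way from sdha-1. It was at 2.07 and 2.33 in controls, 5.96, 6.19 and 5.98 with phenylalanine-betaxanthin, 2.04, 2.85 and 2.28 with indoline-betacyanin, and 2.36, 2.54 and 6.06 with indicaxanthin. The 3 phenylalanine-betaxanthin arrays and indicaxanthin array 3 thus stood well above the other 7. Levels on those 7 were low, not far from the median of all named clusters (1.97 to 2.17 by array), so the size of the rise is uncertain. The difference with phenylalanine-betaxanthin was 3.85 (SE 0.93, limma adjusted p = 0.0181).

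In complex III and cytochrome c, phenylalanine-betaxanthin raised 1 of 8 genes and lowered 3, a share of 50% near the 44.6% of all clusters. The genes for core protein 2, a structural subunit that faces the matrix, split: ucr-2.1 and ucr-2.2 fell and ucr-2.3 rose. ucr-2.1 was at 9.26 and 8.98 in controls, 7.96, 7.81 and 7.94 with phenylalanine-betaxanthin, 9.17, 9.2 and 9.34 with indoline-betacyanin, and 9.01, 8.66 and 8.07 with indicaxanthin. ucr-2.2 was at 8.07 and 7.91 in controls, 6.95, 6.97 and 6.87 with phenylalanine-betaxanthin, 7.60, 7.61 and 7.67 with indoline-betacyanin, and 8.04, 7.99 and 6.93 with indicaxanthin. ucr-2.3 was at 2.06 and 2.09 in controls, 6.24, 6.24 and 6.19 with phenylalanine-betaxanthin, 1.68, 2.13 and 1.88 with indoline-betacyanin, and 2.14, 2.37 and 6.26 with indicaxanthin. Indicaxanthin array 3 was on the phenylalanine-betaxanthin side for all 3 genes, and indicaxanthin arrays 1 and 2 were not. On the remaining arrays ucr-2.3 was near the median level of all named clusters (1.97 to 2.17 by array), so the size of its rise is uncertain. The differences with phenylalanine-betaxanthin were -1.21 (SE 0.24, limma adjusted p = 0.0107) for ucr-2.1, -1.06 (SE 0.29, limma adjusted p = 0.0229) for ucr-2.2 and 4.15 (SE 1.01, limma adjusted p = 0.0184) for ucr-2.3. With indoline-betacyanin, ucr-2.2 differed by -0.37, with a limma adjusted p of 0.51 (SE 0.29) over all arrays and 0.0373 (SE 0.12) without indicaxanthin array 3.

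The third gene of this complex that fell was ucr-1, for core protein 1, with 9.42 and 9.34 in controls and 8.84, 8.78 and 8.75 with phenylalanine-betaxanthin (-0.59, SE 0.18, limma adjusted p = 0.0284). The Rieske iron-sulphur gene isp-1 was at 9.60 and 9.48 in controls, 9.16, 9.33 and 9.26 with phenylalanine-betaxanthin, 9.60, 9.79 and 9.72 with indoline-betacyanin, and 9.48, 9.24 and 9.35 with indicaxanthin. Its phenylalanine-betaxanthin arrays lay below the controls and its indoline-betacyanin arrays at or above them, with differences of -0.29 (95% interval -0.59 to 0.01) and 0.16 (95% interval -0.13 to 0.46). cyc-1, for cytochrome c1, differed by -0.37 (95% interval -0.79 to 0.05) with phenylalanine-betaxanthin. cyc-2.1, for cytochrome c, the mobile carrier, differed by -0.39 (SE 0.15), with a limma adjusted p of 0.0592 over all arrays and 0.0154 without indicaxanthin array 3. ucr-11, for a small subunit, differed by -0.72 (SE 0.35), with a limma adjusted p of 0.115 over all arrays and 0.00643 without indicaxanthin array 3.

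cyc-2.2, a second cytochrome c gene outside the name list, had a pattern of its own. It was at 5.02 and 5.18 in controls, 6.50, 6.41 and 6.12 with phenylalanine-betaxanthin, 1.93, 2.53 and 1.72 with indoline-betacyanin, and 2.42, 2.05 and 6.98 with indicaxanthin. The controls therefore lay between the 4 highest arrays and the 5 lowest. Levels on those 5 were near the median of all named clusters (1.97 to 2.17 by array), so the size of differences from them is uncertain. asb-1, described below, had its arrays in the same arrangement. The difference of cyc-2.2 with phenylalanine-betaxanthin was 1.24, with a limma adjusted p of 0.422 over all arrays and 0.000556 without indicaxanthin array 3. With indoline-betacyanin it was -3.04, with a limma adjusted p of 0.133 over all arrays and 1.96e-06 without indicaxanthin array 3.

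**Figure D2:**
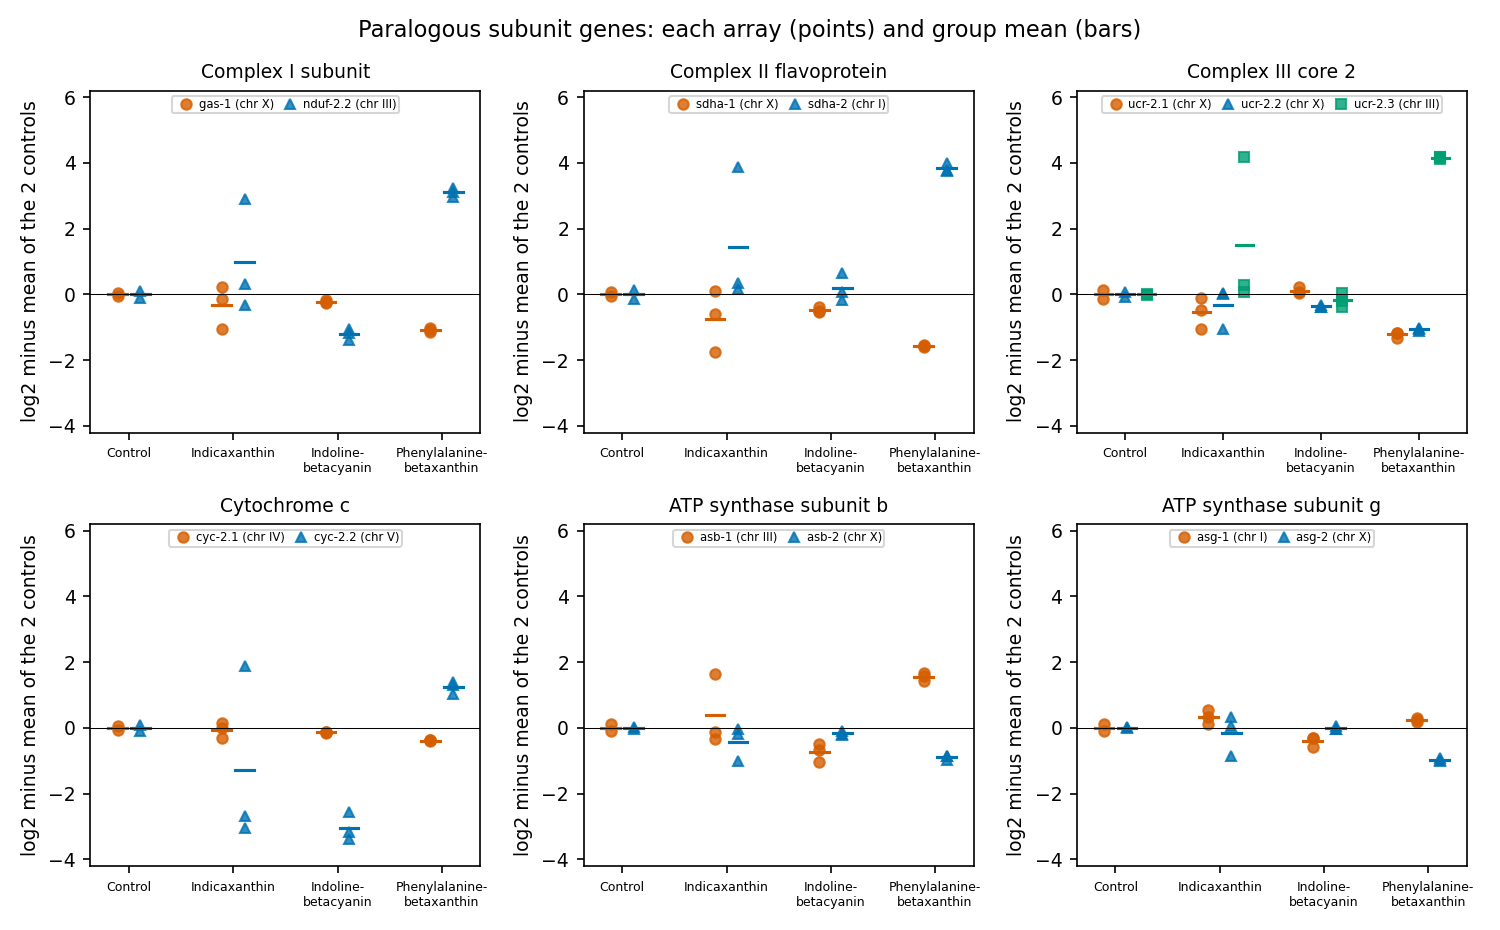
Log2 level of paralogous subunit genes on each array minus the mean of the 2 controls of the same gene, for 6 subunits; points are arrays, short bars are group means and colours and symbols mark the gene, with its chromosome. In the complex I, complex II, complex III and subunit b panels, 1 gene rises and at least 1 falls on the 3 phenylalanine-betaxanthin arrays, and 1 of the 3 indicaxanthin points lies beside them; sdha-2 and cyc-2.2 were outside the name list.

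In complex IV, the oxidase that reduces oxygen, the 2 subunit genes under these names were not called against control. The subunit genes cox-6C and cox-7C, also on the name list, carry sequence names in the deposited annotation. Both were called lower with phenylalanine-betaxanthin and are given with the further subunit genes below. cco-1 (now cox-5B), whose RNA interference extends life, differed by -0.31 (95% interval -0.63 to 0.02) and cco-2 (now cox-5A) by -0.34 (SE 0.15, 95% interval -0.69 to 0.00) with phenylalanine-betaxanthin. cco-2 was called lower once indicaxanthin array 3 was left out (limma adjusted p = 0.0339). Of the 4 assembly factors, 3 lay above their controls on all phenylalanine-betaxanthin arrays, as 34.9% of all clusters did, and 1 was called higher, beside 22.3% of all clusters. cox-11, which delivers copper to the oxidase, was at 4.11 and 3.95 in controls, 5.86, 5.77 and 5.46 with phenylalanine-betaxanthin, 3.48, 4.22 and 4.10 with indoline-betacyanin, and 3.91, 4.86 and 5.67 with indicaxanthin. Its difference of 1.67 (SE 0.44, limma adjusted p = 0.0209) with phenylalanine-betaxanthin exceeded the spread between arrays. cox-17, the copper chaperone, was at 4.96 and 5.09 in controls, 6.09, 5.77 and 5.80 with phenylalanine-betaxanthin, 3.48, 5.06 and 4.67 with indoline-betacyanin, and 5.48, 6.24 and 6.23 with indicaxanthin. Every array of both betaxanthins was above both controls, but the differences, 0.86 (SE 0.42) with phenylalanine-betaxanthin and 0.96 (SE 0.42) with indicaxanthin, missed the threshold (limma adjusted p = 0.122 and 0.303). cox-15 and cox-10, which make the oxidase's haem A, differed by 0.22 and -0.09 with phenylalanine-betaxanthin and were not called.

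In the ATP synthase, phenylalanine-betaxanthin raised 1 of 8 genes and lowered 4, a share of 62.5% called beside 44.6% of all clusters. The forms of subunit b, part of the stalk that holds the enzyme's head, moved in opposite directions. asb-1 was at 6.71 and 6.50 in controls, 8.28, 8.04 and 8.17 with phenylalanine-betaxanthin, 5.58, 6.13 and 5.94 with indoline-betacyanin, and 6.28, 6.48 and 8.25 with indicaxanthin. asb-2 was at 9.63 and 9.57 in controls, 8.63, 8.74 and 8.76 with phenylalanine-betaxanthin, 9.41, 9.38 and 9.51 with indoline-betacyanin, and 9.57, 9.41 and 8.58 with indicaxanthin. For both genes phenylalanine-betaxanthin and indicaxanthin array 3 made up 1 end of the range, and for asb-1 the indoline-betacyanin arrays made up the other. The differences with phenylalanine-betaxanthin were 1.56 (SE 0.50, limma adjusted p = 0.0345) for asb-1 and -0.89 (SE 0.26, limma adjusted p = 0.0247) for asb-2. With indoline-betacyanin, asb-1 differed by -0.72, with a limma adjusted p of 0.428 (SE 0.50) over all arrays and 0.00734 (SE 0.17) without indicaxanthin array 3.

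The forms of subunit g, a membrane subunit of the dimer interface, differed as well. asg-2 was at 9.41 and 9.38 in controls, 8.42, 8.38 and 8.47 with phenylalanine-betaxanthin, 9.36, 9.35 and 9.44 with indoline-betacyanin, and 9.45, 9.73 and 8.53 with indicaxanthin. asg-1 was at 7.55 and 7.34 in controls, 7.68, 7.64 and 7.74 with phenylalanine-betaxanthin, 6.88, 7.14 and 7.15 with indoline-betacyanin, and 7.55, 7.98 and 7.77 with indicaxanthin. asg-2 was lower on the phenylalanine-betaxanthin arrays by -0.97 (SE 0.29, limma adjusted p = 0.0283), while asg-1 was lower on the indoline-betacyanin arrays by -0.39 (SE 0.16), which missed the threshold (limma adjusted p = 0.153). Of the genes with 1 form, atp-4 (coupling factor 6 in mammals) was lower by -0.82 (SE 0.24, limma adjusted p = 0.0277) and atp-5 (subunit d) by -0.41 (SE 0.13, limma adjusted p = 0.0328) with phenylalanine-betaxanthin. atp-3, for the subunit that confers oligomycin sensitivity, differed by -0.34 (95% interval -0.69 to 0.02). atp-2, the catalytic beta subunit, was at 10.62 and 10.50 in controls, 10.23, 10.14 and 10.17 with phenylalanine-betaxanthin, 10.18, 10.18 and 10.22 with indoline-betacyanin, and 10.45, 9.96 and 10.23 with indicaxanthin. All 9 treated arrays of atp-2 were below both controls, but differences of -0.37, -0.36 and -0.34 (SE 0.15 each) were not called (limma adjusted p = 0.0709, 0.152 and 0.304).

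The genes were also read by chromosome, a division chosen after their values had been seen and taken from the NCBI RefSeq annotation of WBcel235. The 6 X-linked genes (gas-1, sdha-1, ucr-2.1, ucr-2.2, asb-2 and asg-2) were all lower with phenylalanine-betaxanthin, and their log2 differences ran from -1.56 to -0.89. Of the 3654 X-linked clusters tested, 33.6% were called lower and 6.51% higher. Of the 32 genes on chromosomes I to V, 4 were called higher and 6 lower, and 25.9% and 19.7% of the clusters there were. The mean level of the 6 X-linked genes was 8.64 and 8.56 in controls, 7.48, 7.45 and 7.49 with phenylalanine-betaxanthin, 8.38, 8.40 and 8.48 with indoline-betacyanin, and 8.65, 8.43 and 7.48 with indicaxanthin. The mean level of the other 32 genes was 7.50 and 7.43 in controls, 7.61, 7.52 and 7.52 with phenylalanine-betaxanthin, 7.15, 7.35 and 7.33 with indoline-betacyanin, and 7.51, 7.61 and 7.61 with indicaxanthin. This mean does not show the direction of most of the 32 genes. With phenylalanine-betaxanthin 24 of their 32 differences were below 0, with a median of -0.30 beside -0.05 over all clusters. The X-linked mean separated phenylalanine-betaxanthin and indicaxanthin array 3 from the other 7 arrays, as the germ-line markers did. The mean of the rest was lowest on the indoline-betacyanin arrays. As the division followed from the values, this separation is no independent evidence, and its cause was not tested.

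**Figure D3:**
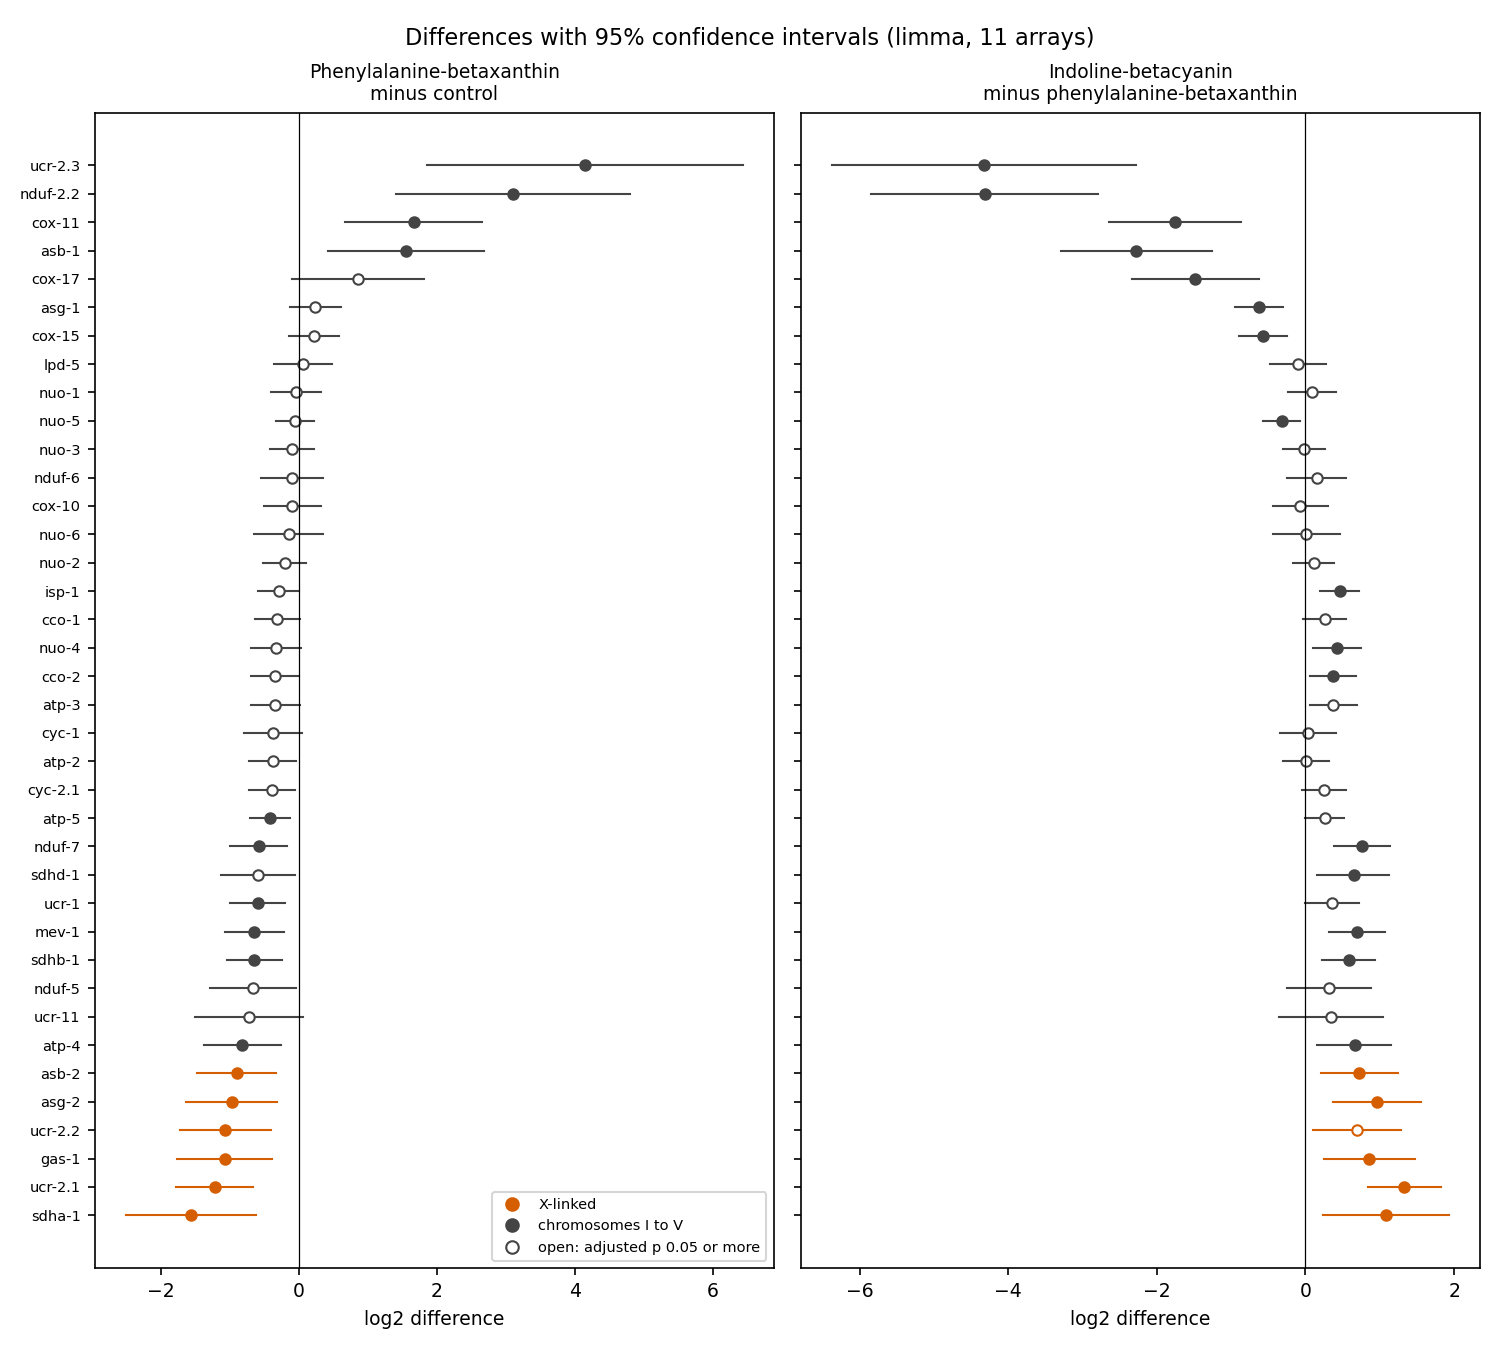
Log2 difference of each of the 38 genes with its 95% confidence interval, for phenylalanine-betaxanthin minus control (left) and indoline-betacyanin minus phenylalanine-betaxanthin (right), from limma over 11 arrays; filled points are called and orange points are X-linked. On the left the 6 X-linked genes are the 6 lowest, and ucr-2.3, nduf-2.2, cox-11 and asb-1 are the highest.

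Arrays 1 and 2 of indicaxanthin, which had similar yolk and germ-line levels, differed from each other along the length of the respiratory chain genes. Across the 38 genes, the log2 level on array 2 minus that on array 1 had a Spearman correlation of -0.56 with the gene's span in the RefSeq annotation, and across 16217 protein-coding clusters it was -0.41. These are correlations across genes within 1 pair of arrays, genes are not independent replicates, and the 38 points share the same 2 arrays. The 19 shorter genes, of 523 to 1599 bases, had a median difference of 0.23 and 16 lay above 0. The 19 longer genes, of 1711 to 8067 bases, had a median of -0.24 and 16 lay below 0. For the other pairs of arrays within a group the correlation over the 38 genes lay between -0.20 and 0.27. Genes of short span such as ucr-11 (0.60), nduf-5 (0.54) and cox-17 (0.76) were higher on array 2, and sdha-1 (-0.68), cox-10 (-0.62) and ucr-1 (-0.59) were lower. cox-11 (0.95), of 2837 bases, was 1 of 3 longer genes above 0.

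**Figure D4:**
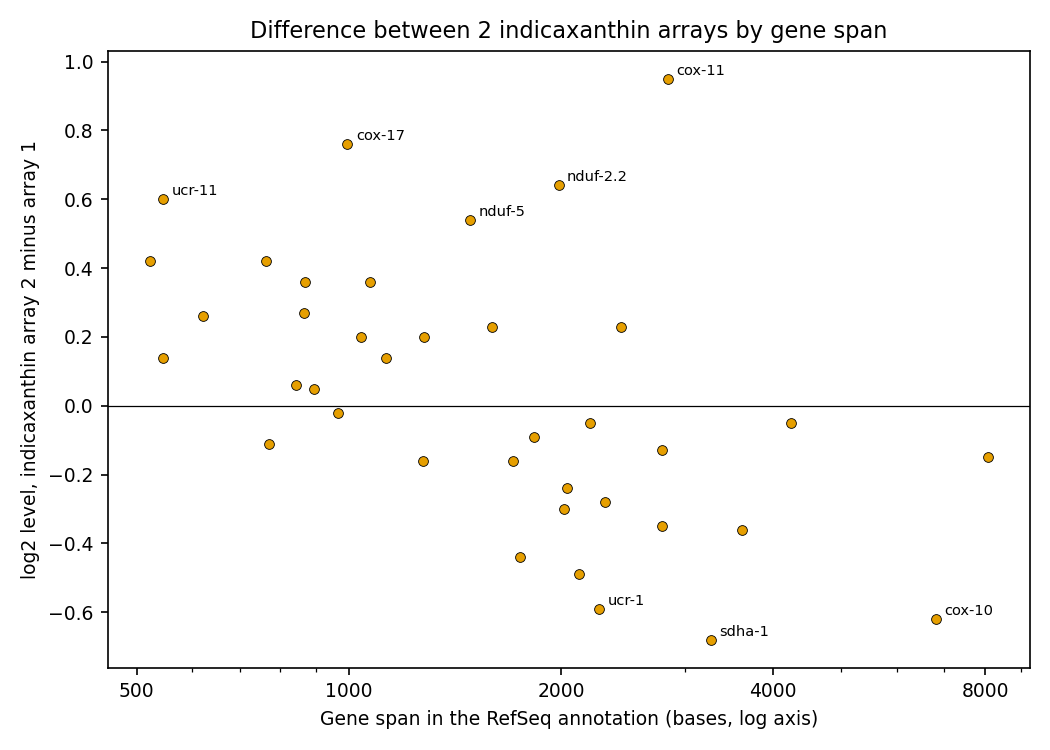
Log2 level on indicaxanthin array 2 minus that on array 1 for each of the 38 genes (vertical axis) against the gene's span in bases in the RefSeq annotation (horizontal log axis). Genes of short span lie mostly above 0 and genes of long span mostly below, with cox-11, at 0.95, among the exceptions.

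The betalains differ in the amine joined to betalamic acid: proline in indicaxanthin, phenylalanine in phenylalanine-betaxanthin and an indoline carboxylic acid in the betacyanin. They were given at the same dose and for the same time, so 3 pairs could be compared. Indoline-betacyanin and phenylalanine-betaxanthin differed in 21 of the 38 genes (55.3%, beside 47.3% of all clusters), of which 13 were higher and 8 lower with indoline-betacyanin (backgrounds 23.5% and 23.8%). Complex II was higher with indoline-betacyanin in 4 of 4 genes, by 0.58 to 1.08 on the log2 scale. ucr-2.1 was higher by 1.33 (SE 0.22, limma adjusted p = 0.00223) and nduf-7 by 0.76 (SE 0.17, limma adjusted p = 0.00711). nduf-2.2 was lower by -4.31 (SE 0.67, limma adjusted p = 0.00184), ucr-2.3 by -4.33 (SE 0.90, limma adjusted p = 0.0059) and asb-1 by -2.28 (SE 0.45, limma adjusted p = 0.00468). Of the complex IV assembly genes, cox-11, cox-15 and cox-17 were lower with indoline-betacyanin, by -1.76, -0.57 and -1.49. isp-1 was higher by 0.46 (SE 0.12, limma adjusted p = 0.0125), and asg-1 was lower by -0.63 (SE 0.14, limma adjusted p = 0.00827). Leaving out single arrays gave 12 to 23 called genes: 13 without indoline-betacyanin array 2 or 3, 13 without phenylalanine-betaxanthin array 1 or 3 and 12 without its array 2. For atp-2 the difference was 0.01 (95% interval -0.30 to 0.32) and for nuo-6 0.01 (95% interval -0.44 to 0.46).

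Indoline-betacyanin and indicaxanthin differed in 2 of the 38 genes, beside 14.2% of all clusters, 4.42% lower. asg-1 was lower with indoline-betacyanin by -0.71 (SE 0.14, limma adjusted p = 0.0121) and cox-17 by -1.58 (SE 0.38, limma adjusted p = 0.0248). Without indicaxanthin array 3 the calls were 8, all lower with indoline-betacyanin, beside 27.8% of clusters, 13.5% lower, and they added lpd-5, nduf-2.2, nduf-5, nuo-6, ucr-11 and ucr-2.2. The calls were 5 without indicaxanthin array 1, and 1 without its array 2 or without indoline-betacyanin array 1 or 3. When limma was fitted to these 6 arrays alone, neither asg-1 nor cox-17 was called. The betaxanthins differed in none of the 38 genes and in 0% of all clusters in the limma fit over all arrays, although 17 of the genes had an unadjusted p under 0.05. Without indicaxanthin array 3, phenylalanine-betaxanthin was higher than indicaxanthin in 4 genes (nduf-2.2, ucr-2.3, cox-11 and asb-1) and lower in 21, beside 55.1% of clusters, 26.6% higher and 28.5% lower. Whether the betaxanthins differ in these genes therefore rested on that array: for sdha-1 the difference was -0.82 (95% interval -1.66 to 0.02) with it and -1.32 (SE 0.18, limma adjusted p = 6.32e-05) without it.

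A further 30 subunit and assembly genes carry sequence names in the files and current symbols in RefSeq, and they were read as a separate list. Genes of the mitochondrial genome were not analysed here. With phenylalanine-betaxanthin 1 was higher and 5 lower (15 lower without indicaxanthin array 3, where 32.5% of clusters were lower), with a median difference of -0.37. The 20% called was below the 44.6% of all clusters. The gene that rose was cox-18, an assembly factor of complex IV (0.91, SE 0.28, limma adjusted p = 0.0295). Those that fell were ndub-10 (-0.53), nduv-2 (-0.46) and ndua-12 (-0.57) of complex I and cox-6C (-0.64) and cox-7C (-0.60) of complex IV. ndua-12 was at 8.50 and 8.24 in controls, 7.90, 7.59 and 7.92 with phenylalanine-betaxanthin, 8.59, 8.75 and 8.80 with indoline-betacyanin, and 8.45, 8.50 and 7.92 with indicaxanthin. It was the called gene of smallest p between indoline-betacyanin and phenylalanine-betaxanthin (0.91, SE 0.18, limma adjusted p = 0.00511). None of the 30 was called with indoline-betacyanin or indicaxanthin against control, where limma gave 3 and 1 with an unadjusted p under 0.05.

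The mitochondrial ribosome, which translates the subunits encoded in the mitochondrial genome, was higher where most subunit genes called were lower. Of 72 of its genes, 46 were higher and none lower with phenylalanine-betaxanthin (median 0.74, 63.9% called beside 44.6% of all clusters), and 61 were lower and none higher with indoline-betacyanin than with phenylalanine-betaxanthin (median -1.08, 84.7% called beside 47.3% of all clusters). Against control, indoline-betacyanin lowered 7 of the 72 (9.7%) and raised none (median -0.29). Of all 20291 clusters, 1902 were lower and 17.3% were called in either direction, so the share lowered was near the background. Indicaxanthin raised 2 (2.8%, median 0.48, and 0.32 without array 3), beside 64 of the 20291 clusters higher and 6.2% called in either direction. mrpl-16, a protein of the large subunit, was at 5.31 and 5.50 in controls, 4.17, 4.21 and 4.17 with indoline-betacyanin, 5.95, 6.01 and 6.0 with phenylalanine-betaxanthin, and 5.38, 5.6 and 5.84 with indicaxanthin. It fell by 1.22 with indoline-betacyanin against control (SE 0.15, limma adjusted p = 0.000546), with no overlap between groups. mrps-14, a protein of the small subunit, rose with both betaxanthins, by 1.37 (SE 0.26, limma adjusted p = 0.00927) with phenylalanine-betaxanthin and 1.23 (SE 0.26, limma adjusted p = 0.0235) with indicaxanthin. Without indicaxanthin array 3, 54 of the 72 were higher with phenylalanine-betaxanthin, beside 28.5% of all clusters. With indoline-betacyanin 19 were then lower, beside 18.2% of all clusters.

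Genes that import proteins into mitochondria and genes of ubiquinone synthesis were read next. With phenylalanine-betaxanthin 4 of 14 import genes and 3 of 8 ubiquinone genes were higher and none lower, beside 22.3% of all clusters in each direction. These became 7 and 4 without indicaxanthin array 3, beside 28.5% of clusters higher. With indoline-betacyanin, 9 and 5 were lower than with phenylalanine-betaxanthin, beside 23.8% of clusters (12 and 5 without that array). tin-13, a small chaperone of the intermembrane space, was at 7.32 and 7.14 in controls, 5.83, 6.16 and 6.04 with indoline-betacyanin, 7.56, 7.46 and 7.26 with phenylalanine-betaxanthin, and 7.53, 7.88 and 7.57 with indicaxanthin. Its 3 indoline-betacyanin arrays were the lowest of all, and the fall of -1.22 (SE 0.17, limma adjusted p = 0.00116) was called. coq-1, which makes the tail of ubiquinone, fell with indoline-betacyanin by 0.75 (SE 0.18, limma adjusted p = 0.0207), and coq-8, a kinase-like protein of the pathway, rose with phenylalanine-betaxanthin by 1.02 (SE 0.19, limma adjusted p = 0.0087).

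Of 21 genes of the citric acid cycle and pyruvate dehydrogenase, 2 were higher and 6 lower with phenylalanine-betaxanthin, a share of 38.1% near the 44.6% of all clusters. They were 4 and 7 without indicaxanthin array 3. Forms of succinyl-CoA synthetase subunits were on both sides: sucg-1 (3.16, SE 0.70, limma adjusted p = 0.0149) and sucl-2 (1.37, SE 0.31, limma adjusted p = 0.0156) rose, and sucl-1 (-0.98, SE 0.27, limma adjusted p = 0.0229) fell. aco-2, the mitochondrial aconitase, fell by 0.90 (SE 0.21, limma adjusted p = 0.0165). With indoline-betacyanin against control 2 of the 21 were lower and none higher, 9.5% called beside 17.3% of all clusters. Of all 20291 clusters, 1902 were lower, so the share lowered was near the background. The 2 genes were dlat-1 (-0.57, SE 0.11, limma adjusted p = 0.00719) and pdhb-1 (-0.47, SE 0.14, limma adjusted p = 0.0488), both subunits of pyruvate dehydrogenase. dlat-1 was at 9.22 and 9.23 in controls, 8.74, 8.58 and 8.65 with indoline-betacyanin, 9.14, 9.08 and 9.09 with phenylalanine-betaxanthin, and 9.22, 9.19 and 9.22 with indicaxanthin. Indicaxanthin array 3 was not apart from its group for dlat-1.

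In the authors' deposited table for indoline-betacyanin, 2 of the 38 genes had an unadjusted p under 0.05 against control (isp-1, linear ratio 1.29, p = 0.028, and nuo-5, ratio 0.827, p = 0.0225), beside 16.5% of all clusters. In the authors' deposited table for phenylalanine-betaxanthin, 3 had p under 0.05 (asg-2, ratio 0.623, cyc-2.1, ratio 0.809, and nuo-4, ratio 0.87), beside 6.55% of clusters. In the authors' deposited table for indicaxanthin, which lists clusters with p under 0.05, none of the 38 appeared. The sum of squares of each cluster in the authors' deposited table fits 3 arrays a group for indoline-betacyanin and phenylalanine-betaxanthin and 2 for indicaxanthin, whereas 2 control arrays and 3 indicaxanthin arrays were analysed here. For asb-1 the authors' deposited table gives a log2 ratio of 0.89 (p = 0.129) with phenylalanine-betaxanthin, and for ucr-2.3 it gives 2.83 (p = 0.103). For phenylalanine-betaxanthin none of the 38 genes had opposite signs in the authors' deposited table and in the fit over 11 arrays. For indoline-betacyanin 7 did, none of them called. Among these, the authors' deposited table gives log2 ratios of 0.13 for sdha-1, 0.17 for gas-1, 0.12 for asb-2 and 0.20 for atp-4, where the fit gave -0.47, -0.21, -0.17 and -0.16.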

How the data were processed

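RNA from 11 whole-animal samples was hybridised to Affymetrix gene arrays. The authors deposited log2 expression values per transcript cluster, which per the submitters' processing notes come from RMA, a method that corrects background, normalizes and summarises probes. No source used here gives the array model or the genome build. The authors also deposited tables of their own comparisons with an unadjusted p-value, a linear ratio (fold) and sums of squares, here treated as a score. No source used here gives the test behind those p-values.

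Of 29317 clusters, 2262 without a gene symbol were left out, and 20291 of the 27055 named ones had a mean above the 25th percentile (log2 1.523) and were tested. limma 3.58.1 in R 4.3.3 was fitted to all 11 arrays by group, without a block, and p-values were adjusted by the Benjamini-Hochberg method over all clusters tested. The script was tested on simulated data. RefSeq (WBcel235) gave names, chromosomes and gene spans and matched 26850 named clusters; no sequence was used here. Arrays give no counts, so their number limits the precision.

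Members and gene lists were chosen with earlier results of these data known. Any member could be named, and values per array were given for up to 6 called genes in each direction per comparison with control and for a fixed set of well-studied subunits and paralogs; of further lists, up to 3 genes of smallest p per comparison, and other genes named there were chosen after their values were seen. Deviations from group means correlated between -0.292 and 0.101 over 15 same-numbered pairs of arrays and between -0.184 and 0.256 over 30 others. These ranges cannot decide whether trial numbers pair the samples. The deviations of both control arrays are mirror images of each other, and those of indicaxanthin include array 3, which stood apart from its group. No pair of arrays shared most of its values exactly. Alternatives were the filter, centring, quantile normalization, a trended prior, array weights, the groups compared alone, a replicate block and leaving out each array.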

Additional observations from a re-analysis of the deposited data

How the results depend on the processing

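Counts of called genes depended on single arrays and on how arrays were weighted, and so did counts over all 20291 clusters. For phenylalanine-betaxanthin against control, 5931 were higher and 6823 lower with array weights, and 1650 and 2008 with the replicate block. For indoline-betacyanin against control, array weights gave 3671 and 3788, and the groups compared alone 3608 and 3700. Against indicaxanthin they gave 2926 and 2653, and 743 and 211. Between the betaxanthins, array weights gave 5452 and 5855. Counts of the 38 genes follow. For phenylalanine-betaxanthin against control, 16 genes became 26 with array weights, 4 with the replicate block (2 higher, 2 lower), and 0 to 22 when single arrays were left out. For indoline-betacyanin against control, 0 became 1 without a filter and 1 after quantile normalization (nuo-5 in both), 5 with array weights, 4 with the groups compared alone and 0 to 4 without single arrays. For indicaxanthin against control, leaving out single arrays gave 0 to 1 (ucr-1, without indicaxanthin array 1). Between indoline-betacyanin and indicaxanthin, 2 became 7 with array weights, 0 with the groups compared alone and 1 to 8 without single arrays. Between indoline-betacyanin and phenylalanine-betaxanthin, 21 became 16 with the replicate block and 12 to 23 without single arrays. Between the betaxanthins, 0 became 27 with array weights and 0 to 25 without single arrays. Leaving out indicaxanthin array 3 together with control array 1 or 2, an alternative chosen after seeing the data, gave 1 and 2 genes for indoline-betacyanin against control, 13 and 20 for phenylalanine-betaxanthin against control, 8 and 8 between indoline-betacyanin and indicaxanthin, and 25 and 25 between the betaxanthins. Leaving out 1 control leaves a lone control assumed to vary like the other groups. Whether samples of the same trial number shared anything is not known, and the reason for the calls lost under the block was not tested. No called difference changed sign under the alternatives run. The uncalled median for indicaxanthin against control went from -0.06 to 0.05 without indicaxanthin array 3. The cause of these changes was not tested.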

Other observations

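Of 7 carriers of adenine nucleotides and related genes tested, 3 were higher and 3 lower with phenylalanine-betaxanthin, beside 44.6% of all clusters called. The carriers ant-1.3 (2.07, limma adjusted p = 0.0269) and ant-1.4 (3.51, limma adjusted p = 0.019) rose and ant-1.1 (-0.87, limma adjusted p = 0.0256) fell. mai-1, a homologue of the ATP synthase inhibitor, fell by 1.64 (SE 0.39, limma adjusted p = 0.0172), and ucp-4, an uncoupling protein homologue, rose by 2.38 (SE 0.54, limma adjusted p = 0.0157). Of 19 glycolysis genes, 2 were higher and 6 lower with phenylalanine-betaxanthin, a share of 42.1% near that of all clusters, and 4 and 6 without indicaxanthin array 3. The genes for glyceraldehyde-3-phosphate dehydrogenase were on both sides, with gpd-1 (5.13, SE 1.24, limma adjusted p = 0.0181) and gpd-4 (3.92, limma adjusted p = 0.0184) higher and gpd-2 (-1.65, limma adjusted p = 0.0299) and gpd-3 (-1.60, limma adjusted p = 0.019) lower. Near-identical copies such as these can share probes, so single members are uncertain. No glycolysis gene and none of these carriers was called with indoline-betacyanin or indicaxanthin against control, where limma gave 2 glycolysis genes with indoline-betacyanin, none with indicaxanthin and no carrier with an unadjusted p under 0.05.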
